A study of Rattus norvegicus with 120 samples.

Results

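The eyes of 30 rats with the lowest and 30 rats with the highest level of Pcdh15 were compared, out of 120 animals in the series. All 120 were 12-week-old male F2 rats from an intercross of 2 inbred strains, SR/JrHsd and SHRSP. The labels name no treatment, and RNA from both eyes of an animal went on 1 Affymetrix array. The labels put all animals in 1 group, and genotypes were not used here. Both groups were chosen by a measured value: from the log2 level of the single Pcdh15 probe set named on the array, the mean of each S code was subtracted and the overall mean added back, and the 30 lowest and the 30 highest animals were taken. The S code (10 codes) and the L code (22 codes) stand in the sample titles and are not explained in the labels. The Pcdh15 values are therefore a description, and the tests below are on the other 23325 probe sets that passed a filter on low levels. Each animal was measured on 1 array, so true differences between animals and array error are not separated in the spread.

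Pcdh15 encodes a protocadherin, a long adhesion molecule of the cadherin family. In hair cells of the inner ear it pairs with Cdh23 to form the tip links that pull open the mechanotransduction channel. In the retina it is found in photoreceptors, and loss of the gene causes Usher syndrome type 1, in which deafness is joined by degeneration of the photoreceptors. Photoreceptor genes are switched on by the homeodomain factors Crx and Otx2, which bind a core written TAATCC. Sequences around an annotated start of Pcdh15 and of 2 genes that differed between the groups are shown as examples. Each holds that core once. Both genes were higher in the high group, but other genes with the core, named below, were lower. They are RefSeq sequences of the GRCr8 assembly, from 250 bases before to 50 bases after the annotated start, read 5′ to 3′ on the gene's strand, with the core (TAATCC, or GGATTA where it lies on the opposite strand) in capitals. The Pcdh15 sequence is chr20:14824749-14825048 on the minus strand, that of Opn4 chr16:9935761-9936060 on the minus strand and that of Guca1a chr9:21086392-21086691 on the plus strand. The starts of Pcdh15 and Guca1a in the table lie inside the annotated genes, downstream of their outer 5′ ends, and that of Opn4 lies at the 5′ end of the gene.
Pcdh15: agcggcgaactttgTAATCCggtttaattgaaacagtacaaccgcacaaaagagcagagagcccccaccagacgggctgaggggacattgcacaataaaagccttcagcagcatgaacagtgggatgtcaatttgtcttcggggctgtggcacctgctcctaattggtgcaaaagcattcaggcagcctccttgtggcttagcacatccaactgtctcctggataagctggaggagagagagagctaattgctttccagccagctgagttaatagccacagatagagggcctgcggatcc
Opn4: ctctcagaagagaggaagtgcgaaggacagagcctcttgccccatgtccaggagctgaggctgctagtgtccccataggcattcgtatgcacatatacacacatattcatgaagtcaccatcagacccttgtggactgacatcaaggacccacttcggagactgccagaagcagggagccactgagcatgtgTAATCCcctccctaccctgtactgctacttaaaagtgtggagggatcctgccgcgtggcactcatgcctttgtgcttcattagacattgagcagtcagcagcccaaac
Guca1a: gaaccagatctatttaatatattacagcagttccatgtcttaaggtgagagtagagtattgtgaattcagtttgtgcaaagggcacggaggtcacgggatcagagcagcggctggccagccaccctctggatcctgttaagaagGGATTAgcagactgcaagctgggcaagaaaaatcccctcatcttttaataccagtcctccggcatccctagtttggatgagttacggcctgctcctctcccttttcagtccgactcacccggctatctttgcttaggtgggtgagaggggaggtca
The core was searched on both strands. Among the genes that the naming rule picked as differing, 78 have a sequence in the table, and 10 of these held the core (12.8%). Opn4, Guca1a, Mfrp, Myh6, Prcd, Rpe65 and Thrb of these were higher in the high group, and Pde6a, Cxcl1 and Adgrv1 were lower. Over all 27457 genes with such a sequence the share was 7.77%, and no test was made of that difference. The sets are unlike, because the named genes were drawn in part from retinal lists. A gene can also have more than 1 annotated start (33469 sequences in all). A match in these letters is a description and not a binding site.

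Pcdh15 ranged from 6.20 to 6.84 in the low group, with a median of 6.70 and a mean of 6.65 ± 0.16 (SD, n = 30). In the high group it ranged from 7.41 to 8.06, with a median of 7.65 and a mean of 7.67 ± 0.20 (SD, n = 30). These are log2 levels with S code means removed, as are all levels given for groups below. The group means lay 1.02 apart, a ratio of 2.03, and the highest animal stood 3.62-fold above the lowest. The 60 animals between the groups filled the range from 6.85 to 7.41 without a break: the last animal inside the low group had 6.8385 and the next one above it 6.8467, and the first animal inside the high group had 7.4121 and the next one below it 7.4075. Among the animals ranked 11 to 110 no neighbours were further apart than 0.053. Where the groups were cut was thus a matter of number and not of a gap.

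The groups were spread unevenly over the codes in the titles. S code 1 held 11 animals, all of them between the groups, and S codes 2 to 10 held animals of both groups. In S codes 1 to 3 the SD of Pcdh15 within a code was 0.14 to 0.22, and 30 of their 35 animals lay between the groups. In S codes 4 to 10 that SD was 0.39 to 0.53. The L code followed the groups closely. Of its 22 codes, 9 held low animals and no high ones (25 low animals), 6 held high animals and no low ones (21 high animals), 4 held neither and 3 held both (5 low and 9 high animals). All 5 animals of L code 14 and all 4 of L code 15 were high, with Pcdh15 at 7.56 or above, and all 6 of L code 19 and all 3 of L code 12 were low, at 6.77 or below. L code 21 held both ends, with 3 low animals at 6.20, 6.40 and 6.46 and 4 high animals between 7.42 and 7.76. For most animals, then, the group and the L code cannot be told apart, and results with the L code in the model are given beside those without it.

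**Figure D1:**
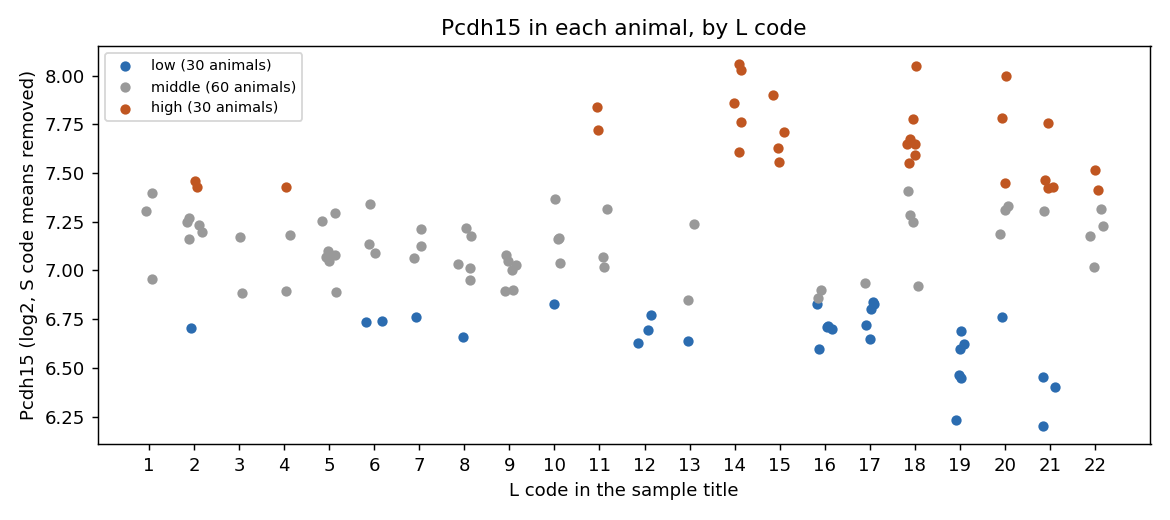
Pcdh15 level (log2, S code means removed) of each of the 120 animals, set out by L code; blue points are the 30 low animals, orange points the 30 high ones and grey points the 60 between them. L codes 14 and 15 hold high animals alone, L codes 12 and 19 low animals alone, and L codes 2, 20 and 21 hold both.

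No difference between the groups was found in technical values of the arrays. Of 6 technical values (the array's median, 75th percentile and SD, its median correlation with the other arrays, and the differences between 3′ and 5′ control probes of actin and GAPDH), none passed, with adjusted p from 0.772 to 0.976 in a two-sided permutation test with 100000 resamples and Benjamini-Hochberg adjustment over the 6. The actin difference was 1.17 ± 0.11 in the low and 1.19 ± 0.12 in the high group (SD, n = 30 each). Of the 3 arrays that the titles mark as scanned again, 2 belonged to the high group and 0 to the low group. Genes that define tissues of the eye were present at high levels in both groups: the mean over 19 lens genes lay between 12.2 and 12.5 in the low and in the high animals, and the mean over 17 rod genes between 10.7 and 11.2 in the low and between 10.7 and 11.1 in the high animals.

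Beyond Pcdh15 the groups differed in many genes by small amounts. With limma and the S code in the model, 1679 of 23325 probe sets differed at an adjusted p under 0.05 (7.2%), 829 of them higher in the high group (3.55%) and 850 lower (3.64%). Counted as genes with 1 probe set each, 990 of 12325 differed (8.03%), 492 higher (3.99%) and 498 lower (4.04%). The median size of these differences was 0.14 on the log2 scale, or 1.10-fold. A difference of at least 0.32 on the log2 scale was reached by 60 of the genes (29 higher, 31 lower) and at least 1.5-fold by 8. In no probe set did the 30 high animals lie wholly outside the range of the 30 low ones. A further 386 of the probe sets that differed have no single gene symbol and are not named. The count fell to 36 probe sets with the L code as a factor, where 5 of the 83 named genes that passed did so again and 15 turned sign. It was 1085, 1051 and 882 without S code 6, 7 and 8, and 1092 and 1060 without L code 17 and 18.

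Opn4, the gene of melanopsin, the pigment of the light-sensitive retinal ganglion cells, had the largest difference among the genes higher in the high group. Its level was 5.29 to 6.76 in the low animals (median 5.82) and 6.16 to 7.35 in the high animals (median 6.53), a difference of 0.77 (SE 0.087, 1.70-fold, adjusted p = 6.8e-09). The ranges overlapped, but all 30 high animals lay above the low median and the high group was higher in each of the 9 S codes that hold both. Serpine3, of the serine protease inhibitor family, ranged from 4.28 to 7.08 in the low (median 5.69) and from 4.59 to 7.91 in the high animals (median 6.40), and was 1.66-fold higher (adjusted p = 0.00947). It varied widely within both groups, and with the L code in the model it differed by -0.050. Noggin (Nog), a secreted antagonist of bone morphogenetic proteins, had medians of 5.19 and 5.90 and was 1.56-fold higher (0.64, SE 0.12, adjusted p = 0.000251). Egr1, an immediate early transcription factor, was 1.48-fold higher, with medians of 8.25 and 9.003 (adjusted p = 0.00463). Myh6, the alpha heavy chain of cardiac myosin, was 1.46-fold higher (adjusted p = 0.000312), while the other probe set of the gene, near the filter, differed by 0.10 and did not pass (adjusted p = 0.12). Rorb, a nuclear receptor that rods need to form, was 1.42-fold higher on its main probe set, at 6.20 to 7.30 in the low (median 6.90) and 6.62 to 8.34 in the high animals (median 7.29, adjusted p = 0.000144), and its weaker probe set differed by 0.30 in the same direction.

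The other genes among the 15 with the largest positive differences were between 1.31-fold and 1.38-fold higher. Cc2d2a, a protein of the ciliary transition zone that is mutated in Joubert syndrome, was 9.06 to 9.999 in the low animals (median 9.64) and 9.67 to 10.50 in the high animals (median 10.04), 19 high animals stood above every low one, and the high group was higher in all 9 S codes (0.44, SE 0.049, adjusted p = 3.23e-09). Arr3, the arrestin of cones, had medians of 7.27 and 7.63 (0.45, SE 0.092, adjusted p = 0.000899). Pde8a, which breaks down cyclic AMP, ranged from 6.75 to 7.40 in the low and from 7.04 to 7.98 in the high animals, 20 of which stood above every low one (adjusted p = 1.05e-08). Dynlrb2, a light chain of dynein, had 18 such animals (adjusted p = 1.43e-08), and Tsga10, first known from testis, had 10 (adjusted p = 2.25e-06). Zc3h6, a zinc finger gene, Fbxo17, an F-box gene, and Ubxn11, a UBX domain gene, were higher by 0.41, 0.40 and 0.39. Cnpy1, of the canopy family, was higher by 0.47 (adjusted p = 0.0276).

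Ptprn, a phosphatase-like protein in the membrane of dense-core secretory vesicles, had the largest difference of the genes that passed, in the opposite direction to Pcdh15. It ranged from 8.33 to 10.01 in the low animals (median 9.05, SD 0.49) and from 7.89 to 8.62 in the high animals (median 8.24, SD 0.20), a 1.90-fold lower level in the high group (-0.92, SE 0.088, adjusted p = 5.43e-11). All 30 high animals lay below the low median, 20 of them below every low animal, and the sign was the same in all 9 S codes, the only such gene among the 15 with the largest negative differences. Grk1, the kinase that shuts off activated rhodopsin, was 1.56-fold lower in the high group (8.30 to 9.57 in the low, median 9.09; 7.86 to 9.19 in the high, median 8.41; adjusted p = 3.78e-08). Grk1 was lower in 7 of the 9 S codes, with differences within a code from -0.91 to 0.76. Icmt, which methylates the tail of prenylated proteins, was 1.49-fold lower, with medians of 8.32 and 7.77 and 29 of 30 high animals below the low median (-0.57, SE 0.052, adjusted p = 2.85e-11). Its other probe set gave -0.60. Lpcat1, a phospholipid-remodelling enzyme that photoreceptors need, was 1.42-fold lower, with medians of 10.50 and 10.02 and 19 high animals below every low one (adjusted p = 1.54e-09). Pde6a, the alpha subunit of the rod phosphodiesterase, had medians of 9.69 and 9.15 and was 1.44-fold lower (adjusted p = 4.1e-05).

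Several of the remaining genes with large negative differences varied widely inside the low group. Mthfd2, a mitochondrial enzyme of folate metabolism, was 6.16 to 8.67 in the low (median 7.33) and 5.48 to 7.66 in the high animals (median 6.58), a 1.74-fold lower level in the high group (adjusted p = 0.00129). Gfap, the intermediate filament of astrocytes and of reactive Müller glia, was 6.15 to 9.05 in the low (median 7.74) and 5.70 to 8.09 in the high animals (median 7.18), 1.58-fold lower (adjusted p = 0.017). Without L code 19 its adjusted p was 0.114. Ccn5, a matricellular protein, Cxcl1, a chemokine for neutrophils, and Lgals7, a galectin of stratified epithelia, were lower by 0.55, 0.51 and 0.50. Mthfd2 and Chac1 were lower in 6 of the 9 S codes, the smallest number among the 30 genes with the largest differences, of which 7 had the same sign in all 9. Of these 30 genes, 23 stayed below an adjusted p of 0.05 whichever of the 18 L codes with group animals was left out, and 22 whichever of the 9 S codes was. Both held for 21 (13 higher, 8 lower). The highest adjusted p without an L code was 0.162 for Ifit3 (without L code 17), 0.121 for Cnpy1 (without L code 14), 0.0922 for Chac1, 0.0791 for Asns and 0.053 for Sesn2 (all without L code 17), and 0.0568 for Lgals7 (without L code 18). Without an S code it was 0.0504 for Serpine3 (S code 8) and 0.055 for Ccn5 (S code 6), and from 0.0606 (Sesn2) to 0.152 (Cnpy1) for Gfap, Chac1, Asns, Ifit3, Sesn2 and Cnpy1.

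**Figure D2:**
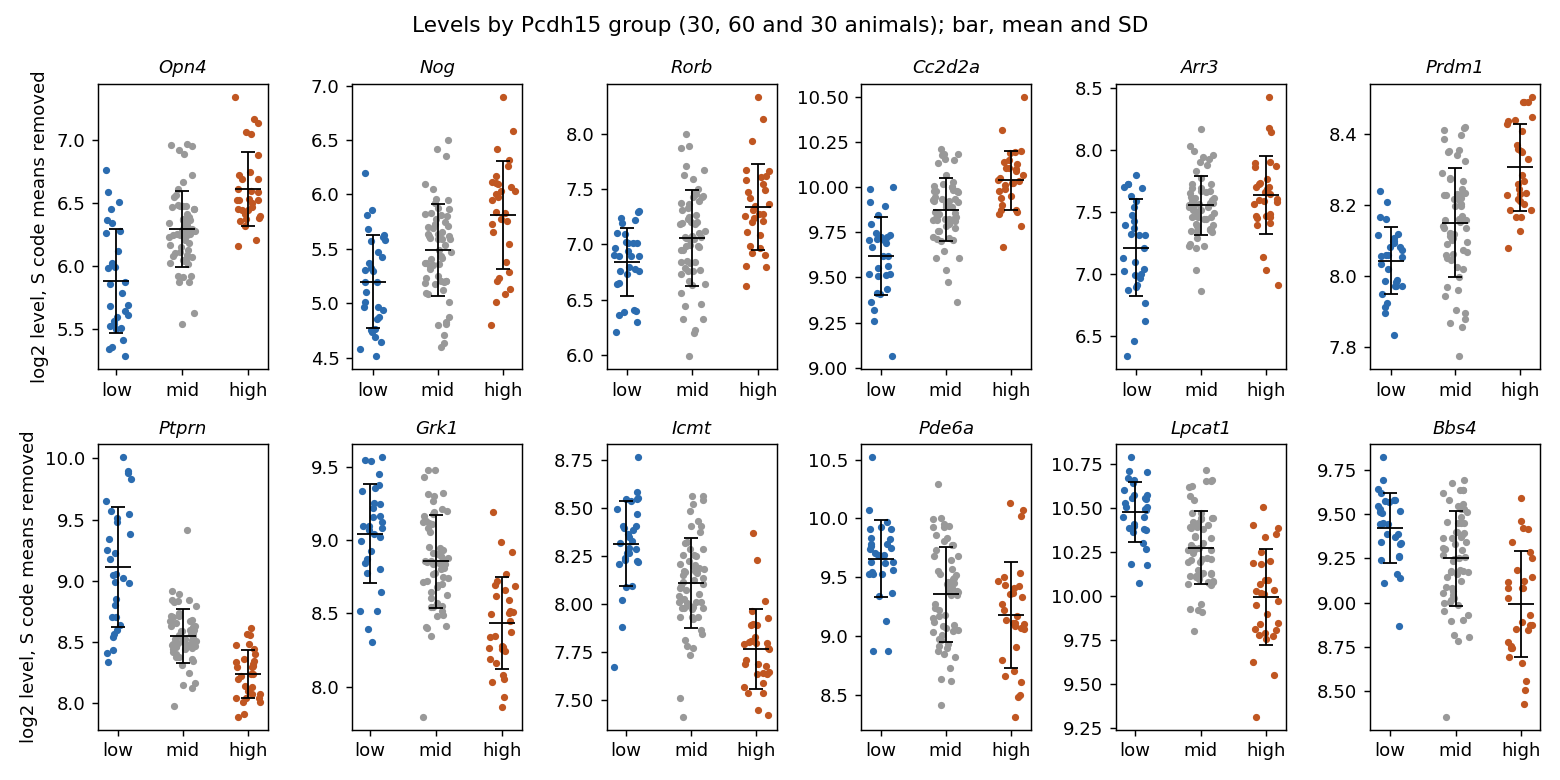
Log2 level (S code means removed) of 12 genes in each animal of the low (30), middle (60) and high (30) Pcdh15 groups; horizontal bars are group means and vertical bars SDs. The upper 6 genes were higher in the high group and the lower 6 were lower, the groups overlap in every panel, and Ptprn is spread more widely in the low group (SD 0.49) than in the high one (SD 0.20).

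Other probe sets of the same genes gave a further view. Of the 990 genes, 338 had at least 1 more tested probe set, 480 in all. Of these 97 passed in the same direction, 7 passed in the opposite direction and 376 did not pass, and 374 of the 480 had the same sign. Agpat3, an acyltransferase of phospholipid synthesis, had probe sets at -0.38 and -0.50 that were lower in the high group and another at 0.34 that was higher, so no direction can be given for this gene. Hnrnpu, an RNA-binding protein, was lower on its strongest pair of probe sets (-0.091 and -0.10) and higher on its weakest (0.20). Trib3 was lower on all 3 of its probe sets, and Bbs4, Sesn2, Egflam and Kif3b on both of theirs. Thrb was higher on 2 of 3. The other probe set did not pass for Ipmk (0.017), Gstt2 (0.016), Gad1 (0.039), Cplx3 (0.031), Irf9 (-0.15) and Ift46 (-0.013, the opposite sign). Nor did those of Nr1d2 (0.11 and 0.077) and Dkk3 (0.076 and 0.051).

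Gene lists described the differences by function. The 40 lists hold 641 genes, of which 522 were measured, and 72 of these (13.8%) passed, 36 higher and 36 lower, against 8.03% of all genes. Retinal lists make up many of the 40 and were chosen with earlier results known, and in whole eyes fewer cells of a type and less RNA per cell cannot be told apart. The median difference over all genes was -0.00030.

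Rod phototransduction genes differed in both directions. Of 17 measured genes 5 were lower in the high group, 1 was higher and 11 did not pass, and the median was -0.018. Thus 35.3% of the list passed, against 8.03% of all genes. Grk1 and Pde6a led the lower genes. Guca1b and Gucy2d, which control the resynthesis of cyclic GMP after light, were each lower by 0.19 (adjusted p = 0.000241 and 0.00725; Guca1b in 6 of 9 S codes), and Sag, the arrestin of rods, by 0.082. Guca1a, a close relative of Guca1b that also regulates the guanylate cyclases, was higher instead: it was 10.91 to 11.64 in the low (median 11.35) and 11.19 to 11.83 in the high animals (median 11.59), and the high group was higher in all 9 S codes (0.20, SE 0.040, adjusted p = 0.000425). The transducin subunit Gnat1 differed by 0.02 and the phosphodiesterase subunit Pde6b by -0.02, and neither passed. With the mean of the 17 rod genes as a covariate, 1310 probe sets differed between the groups. Of 8 cone genes, Arr3 and Opn1mw, the middle-wavelength opsin, were higher (Opn1mw medians 6.49 and 6.72, adjusted p = 0.0194) and the other 6 did not pass. The cone list had a median of 0.098, and 25% of its genes passed.

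Photoreceptor transcription factors split by direction, with 4 of 10 higher, 2 lower and 4 not passing (median 0.082). Thus 60% passed, against 8.03% of all genes. Prdm1, which holds back bipolar genes in newly formed photoreceptors, showed a small but regular difference: it was 7.83 to 8.24 in the low (median 8.06) and 8.08 to 8.50 in the high animals (median 8.28), with all 30 high animals above the low median, 18 above every low animal and the same sign in all 9 S codes (0.27, SE 0.029, 1.21-fold, adjusted p = 1.38e-09). Rorb was higher too, as were Thrb, the thyroid hormone receptor that patterns cone opsins (0.15, adjusted p = 0.00309), and Otx2 (0.15, adjusted p = 0.0184). Mef2d, a partner of Crx on photoreceptor genes, was lower (medians 7.65 and 7.37, adjusted p = 5.48e-07), although its weaker probe set differed by -0.053 and did not pass. Crx itself was lower by 0.25 (adjusted p = 0.0113).

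The structural and visual cycle genes were also mixed. Of 13 outer segment genes, Fscn2, an actin-bundling protein of the outer segment, was lower by 0.30 (adjusted p = 0.00228), Prcd, a small disc protein, was higher by 0.14 (adjusted p = 0.0476) and 11 did not pass, among them Prph2 and Rom1 of the disc rim. Of 11 visual cycle genes 3 were higher and 2 lower (45.5%, against 15.4% of the outer segment list and 8.03% of all genes). The higher ones act in the pigment epithelium and Müller glia: Rpe65, the isomerase, by 0.17 (adjusted p = 0.0136), Rlbp1, a carrier of retinaldehyde, by 0.15 (adjusted p = 0.000431), and Rgr by 0.12 (adjusted p = 0.0223). The lower ones were the retinol dehydrogenases Rdh12 (-0.26, adjusted p = 0.000283) and Rdh11 (-0.21, adjusted p = 0.000173). In the pigment epithelium list 1 of 9 genes passed (11.1%), Mfrp (0.11). In the melanocyte list it was 1 of 8 (12.5%), Tyr, the key enzyme of melanin synthesis (0.17, adjusted p = 0.00166).

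Among genes of the cilium, whose connecting stalk carries proteins into the outer segment, 3 of 11 transition zone and Joubert syndrome genes passed (27.3%, against 8.03% of all genes), 2 of 13 Bardet-Biedl genes (15.4%) and 3 of 18 genes of intraflagellar transport (16.7%). In the first list Cc2d2a was higher, and Tmem237 (medians 7.99 and 7.70, adjusted p = 6.77e-06) and Mak (-0.19, adjusted p = 0.0443) were lower. Among the Bardet-Biedl genes, whose products form a cargo complex of the cilium, Bbs4 was lower on both of its probe sets, at 8.86 to 9.82 in the low (median 9.44) and 8.43 to 9.59 in the high animals (median 8.98; -0.45, SE 0.060, adjusted p = 2.14e-07). Ttc8 was higher by 0.17 (adjusted p = 0.0281) and 11 did not pass. In the intraflagellar transport list Ift46 was higher by 0.10, and Ift80 and the kinesin subunit Kif3b were lower by 0.13 and 0.14.

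Among the partners of Pcdh15 the differences that passed were small. Of 4 measured Usher type 1 genes other than Pcdh15 1 passed (25%, against 8.03% of all genes): Ush1c, the scaffold protein harmonin, was higher by 0.13 (5.17 to 5.75 in the low, median 5.54; 5.38 to 5.95 in the high, median 5.62; adjusted p = 0.0237). Cdh23, which forms the tip link with Pcdh15, differed by 0.0037 (SE 0.038), the myosin Myo7a by -0.0021 (SE 0.035) and the calcium-binding Cib2 by 0.062 (SE 0.057), and none of these passed. Adgrv1 was the single measured gene of Usher types 2 and 3 and was lower by 0.083 (SE 0.025, adjusted p = 0.0296). Of the hair cell partners, Tmie, Calb2 and Espn were measured and did not pass. Of 16 other protocadherins and cadherins, Pcdh18 was higher by 0.14 (adjusted p = 0.0435) and 15 did not pass.

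In the lists of bipolar and of amacrine and horizontal cells the few genes that passed were higher in the high group. None of them kept its sign over the middle 60 animals. Of 10 bipolar cell genes 3 passed (30%, against 8.03% of all genes): Gng13 (0.21, adjusted p = 0.00121), Grm6, the glutamate receptor of ON bipolar cells (0.17, adjusted p = 0.0033), and Car10 (0.17, adjusted p = 0.00524) were higher. Of 15 amacrine and horizontal cell genes 1 passed (6.67%), Gad1, which was higher by 0.14 (adjusted p = 0.0443). Of the 15 differences 14 were positive, against 49.8% over all genes. Other lists leaned to 1 side as well, with 12 of 13 ganglion cell and 14 of 16 protocadherin and cadherin differences positive. Of 15 microglia differences 13 were negative. None of 13 genes that mark ganglion cells, the class Opn4 belongs to, passed, and their median was 0.044. Of 14 ribbon synapse genes, Cplx3, a complexin of ribbon synapses, and Vtn, a matrix glycoprotein, were higher by 0.13 each and Egflam, the matrix protein pikachurin, was lower by 0.18. Of 13 genes of Müller glia and astrocytes, Gfap and Rax were lower and Dkk3 was higher by 0.073. In the ribbon synapse list 21.4% passed and in the glial list 23.1%, against 8.03% of all genes.

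The amino acid and unfolded protein stress list held the most genes that passed in 1 direction. Of its 15 genes 9 were lower in the high group (60%, against 4.04% of all genes), none was higher and the median was -0.21. The transcription factor Atf4 was lower by 0.21 (medians 11.74 and 11.49, adjusted p = 0.000102), and so were genes it is known to switch on: Trib3 (medians 6.97 and 6.25, with all 30 high animals below the low median, adjusted p = 6.82e-05), Mthfd2, Chac1 (1.47-fold), Asns, the asparagine synthetase (1.41-fold), Sesn2 (1.38-fold) and Ddit3 (1.20-fold). Herpud1 and Xbp1 were lower by 0.23 and 0.10. The direction of this list turned with the L code in the model. There, 7 of the 9 genes changed sign, among them Mthfd2 (0.22, SE 0.27), Asns (0.40, SE 0.20) and Chac1 (0.33, SE 0.19), none passed, and the list's median was 0.088. Of the 13 interferon genes, all 13 differences were negative (median -0.26), while over all genes 49.8% were positive. Ifit3 and Irf9 passed (adjusted p = 0.0309 and 0.0108), 15.4% of the list against 8.03% of all genes. Ifit3 reached 8.96 in the highest low animal and 7.45 in the highest high animal.

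Of 18 clock genes 5 were higher and 2 lower (38.9% passed, against 8.03% of all genes). Dbp, an output gene of the clock, had medians of 8.09 and 8.29 (adjusted p = 0.00643), and the repressors Nr1d1 (0.26, adjusted p = 0.0145), Nr1d2 (0.19, adjusted p = 0.00309) and Per2 (0.20, adjusted p = 0.0319) were higher as well, with Rorb as the fifth. Bmal1, the activator that Nr1d1 represses, was lower by 0.17 (adjusted p = 0.0259), and so was Nfil3 (-0.24, adjusted p = 0.0173). With the L code in the model none of these passed, and Nfil3 differed by 0.01. Over the 60 animals between the groups 3 of the 7 kept their sign. The labels give no time of day for an animal.

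Few genes of tissues outside the retina passed. In 12 of the 40 lists no gene passed, including 19 lens genes (median 0.0032), 18 of the corneal and conjunctival epithelium (-0.070), 7 of the lacrimal and Harderian glands (-0.051), 4 of red blood cells (-0.039), 16 ribosomal proteins (0.0099) and 26 proteasome subunits (-0.015). In the cholesterol synthesis, heat shock and both MHC lists no gene passed either. Single genes passed among 24 muscle genes (Myh1, 0.091), 18 of fibroblasts (Pdgfra, 0.13), 13 of the endothelium (Tie1, 0.15), 15 of microglia (C1qa, -0.18), 10 of the glucocorticoid response (Mt2A, -0.17) and 15 immediate early genes (Egr1). These are shares of 4.17% to 10%, against 8.03% of all genes. The other probe sets of Myh1, from -0.051 to 0.025, did not pass. Of 27 respiratory chain subunits Cox8a, Ndufb3 and Ndufa1 were higher by 0.064 to 0.084, and of 23 splicing genes Srsf6 and Hnrnpu were lower on their main probe sets. The other probe sets of Srsf6 (-0.023 and -0.035) did not pass, and the weakest of Hnrnpu was higher, as given above.

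**Figure D3:**
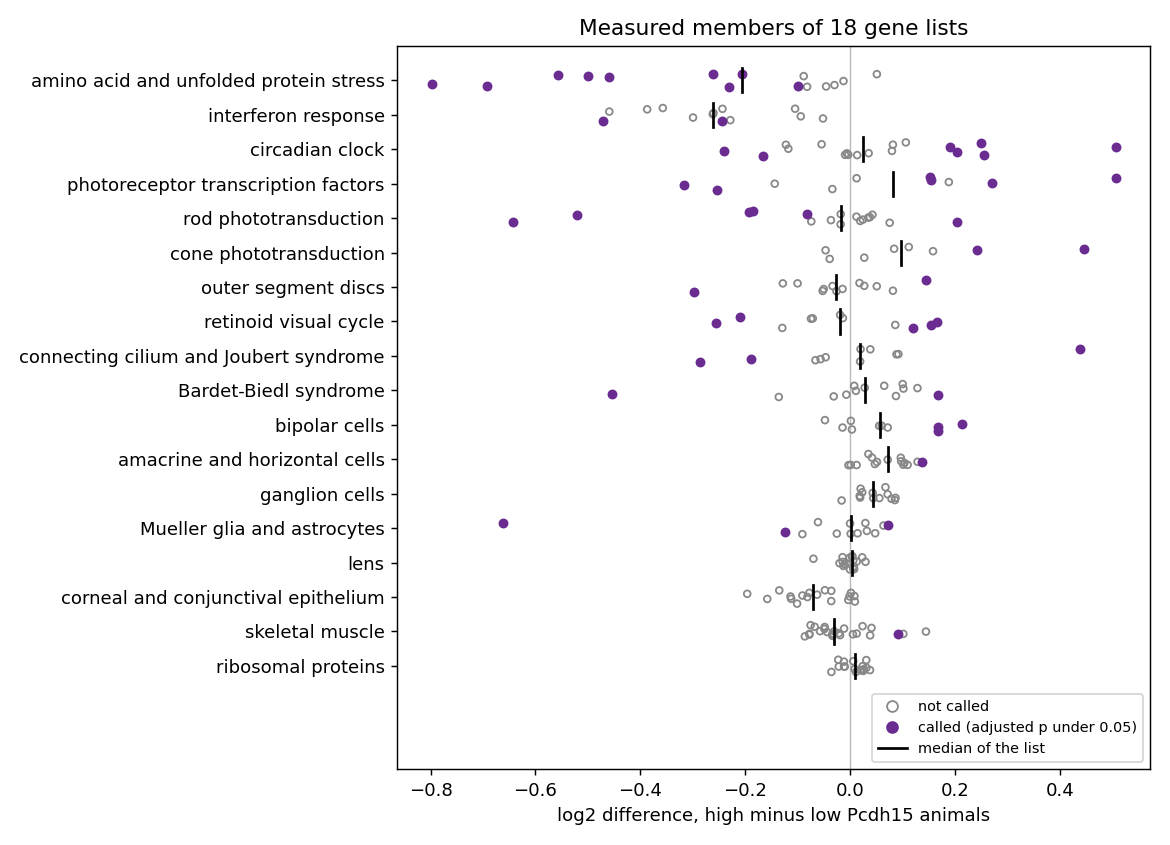
Log2 differences (high minus low Pcdh15 animals) of every measured gene in 18 of the 40 lists; filled points passed at an adjusted p under 0.05, open points did not, and black bars are list medians. The stress list leans to negative values with 9 of 15 genes filled, rod and transcription factor genes lie on both sides, and lens and ribosomal genes stay near 0.

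Adding the L code to the model tested the groups within L codes, which rests on the 14 animals of L codes 2, 20 and 21. There 36 probe sets passed, 30 of which had passed without the L code, and 20 of 12325 genes (0.162%). The direction was the same in 1446 of the 1679 probe sets. The 14 animals are also part of the fit without the L code. Agreement between the 2 fits, in direction or in genes that passed, is therefore partly built in. Of the named genes 5 passed in both fits: Ptprn (-1.49, SE 0.14), Opn4 (1.03, SE 0.14), Icmt (-0.54, SE 0.10), Guca1b (-0.47, SE 0.074) and Rax (-0.38, SE 0.081), the last a homeobox gene of retinal progenitors and Müller glia. In the limma fit without the L code, Rax had an adjusted p of 0.0408, and 0.211 when L code 21 was left out. Its other probe set did not pass there (adjusted p = 0.179). With the L code as a random block the estimated correlation was -0.0027, so that fit is nearly the same as the one without the L code. All 1679 probe sets passed again among 1717, which is thus no separate test of the L code.

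L code 21 showed these differences most plainly. Its 3 low animals had Ptprn at 9.48, 9.57 and 9.90, and its 4 high animals at 8.01, 8.04, 8.07 and 8.07. Opn4 was 5.36, 5.50 and 5.52 in the same low animals and 6.40, 6.46, 6.61 and 6.88 in the high ones. Neither gene overlapped between the groups there. Both genes are shown because they passed the fit that rests on these animals, so their values describe that result and do not add to it. How many other probe sets were without overlap in L code 21 was not counted. In L code 20 the single low animal had Ptprn at 9.51 and the 3 high animals had 7.89, 8.04 and 8.10, and Opn4 was 5.69 against 6.53, 6.53 and 6.59. L code 2 was different: its low animal had Ptprn at 8.43 and the high animals 8.32 and 8.62, and Opn4 was 6.12 against 6.21 and 6.36. Its Pcdh15 values were also the closest together, 6.70 in the low and 7.43 and 7.46 in the high animals. Guca1b followed the first pattern, at 11.81 to 11.87 in the low and 11.29 to 11.39 in the high animals of L code 21.

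**Figure D4:**
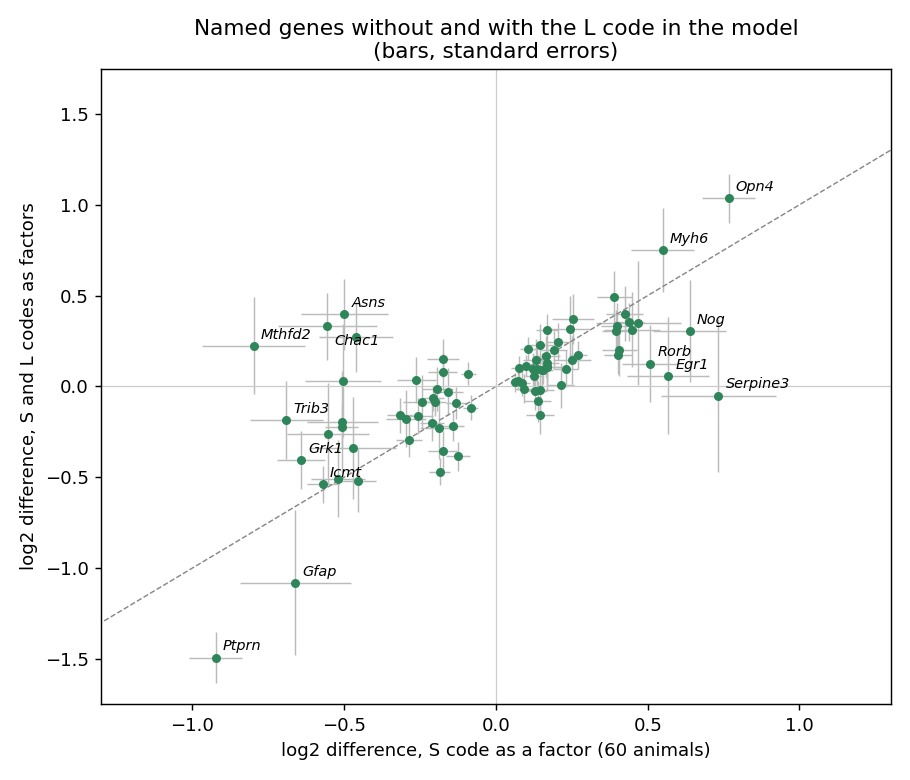
Log2 difference (high minus low) of the named genes that passed, with the S code as a factor on the horizontal axis and with the S and L codes as factors on the vertical axis; bars are standard errors and the dashed line marks equal values. Ptprn and Opn4 lie beyond the line at -1.49 and 1.03, while Mthfd2, Chac1 and Asns cross from negative to positive values.

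The 60 animals between the groups were not used to form them and span Pcdh15 levels from 6.85 to 7.41. Across these animals no probe set followed Pcdh15 at an adjusted p under 0.05 in limma with the S code in the model (0 of 23325, and 1862 at an unadjusted p under 0.05). Of the 1679 probe sets that differed between the groups, 877 (52.2%) had the same direction here. Slopes are scaled to the distance between the group means. Ptprn had -0.40 (SE 0.19), Grk1 -0.55 (SE 0.25), Icmt -0.72 (SE 0.19) and Prdm1 0.28 (SE 0.15), and Opn4 had 0.16 (SE 0.28). All 9 stress genes kept their negative sign, with Mthfd2 at -1.52 (SE 0.58) and Trib3 at -1.17 (SE 0.45). None of these slopes passed.

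Pcdh15 lies on chromosome 20, and the genes beside it were looked at in the order of the RefSeq table. Of the 20 nearest tested genes on each side, 40 in all, Ipmk, an inositol phosphate kinase that is the second gene on one side, was higher (medians 7.66 and 7.91, 0.23, SE 0.039, adjusted p = 3.74e-05), and Gstt2, a glutathione transferase, was higher by 0.12 (adjusted p = 0.0226). Zfp365 was lower by 0.19 (adjusted p = 0.00994) and Cdk1, a cell cycle kinase, by 0.16 (adjusted p = 0.0341). The other 36 did not pass, and 4 of 40 is close to the 8.03% of all genes. On chromosome 20 as a whole 6.46% of 356 genes passed. Over 21 chromosomes the share ran from 6.22% to 12.0%, the latter on chromosome 18.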

How the data were processed

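The measurements were mRNA levels in whole eyes of 120 rats, 1 array each. The authors deposited log2 values made by RMA, per the submitters' processing notes. Its version and the annotation build are not given in the sources used here. RMA brings arrays to a common distribution, so a change shared by most genes would be hidden. Gene names came from the platform annotation and were brought up to date through Entrez numbers in a RefSeq table (GRCr8): of 31099 probe sets 57 were controls, 20832 had 1 symbol and 20764 of these matched the table. A probe set was tested if its mean reached 4.283, the 25th percentile over all deposited values, and a gene was represented by its probe set of highest mean. The number of arrays limits the precision, and p-values measure the spread between animals and single arrays together.

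High and low animals were compared with limma 3.58.1 in R 4.3.3 (lmFit and eBayes with trend, two-sided) on the deposited values, with the S code as a factor, 50 residual degrees of freedom and Benjamini-Hochberg adjustment over 23325 probe sets. A probe set was called at an adjusted p under 0.05. With the L code as a further factor 33 degrees of freedom remained. Genes named are the 15 called genes with the largest difference in each direction, up to 4 called members of each list by p, the Usher lists, and called genes among the 40 neighbours of Pcdh15. Other called or uncalled members of a list are named to complete its description, and Agpat3 was named after its values were seen. The members and lists were chosen with earlier results of these data known, so list counts are descriptions. Alternatives changed the covariates, samples, group sizes, filter, scaling and threshold. The random block, leaving out L codes in turn, and leaving out the L codes that hold both groups were chosen after seeing the data.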

Additional observations from a re-analysis of the deposited data

How the results depend on the processing

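The count of 1679 probe sets (829 higher, 850 lower) moved most with the codes and with the choice of animals. It was 589 (321 higher, 268 lower) without the S code in the model, 36 (14 and 22) with the L code as a factor, 941 (498 and 443) in a fit of all 120 animals, 908 (451 and 457) with 20 animals a group, and 646 (249 and 397) with 5 principal components as covariates. A slope over 120 animals called 1144 (452 and 692), and a slope over the middle 60 called 0 in either direction (0 and 0). An adjusted p of 0.01 left 716 (376 and 340), and a log2 difference of at least 0.32 left 54 higher and 62 lower ones. Without the L codes that hold both groups it was 1165 (473 and 692). The count ranged from 882 to 2051 (417 to 1055 higher, 465 to 996 lower) with each S code left out, and from 1060 to 2397 (542 to 1286 higher, 511 to 1111 lower) with each L code left out. It stayed within 1.5 times with 40 animals a group, with the actin and GAPDH differences or the rod mean as covariates, with other filters, with array medians subtracted, without rescanned arrays and with the L code as a random block. The fit with the random block, at an estimated correlation of -0.0027, is nearly the main fit and no separate test of the L code. With the actin and GAPDH differences it was 1647, split as 680 higher and 967 lower.

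Of 83 named genes that passed, 47 passed without the S code, 5 with the L code as a factor, 52 with 20 animals a group, 36 with 5 principal components and 0 in the slope over the middle animals. With each S code left out 55 to 81 passed, and with each L code left out 55 to 80. The 72 list genes fell to 32 without the S code and to 3 with the L code, and the 4 neighbours of Pcdh15 to 1 and 0. No named gene changed sign without the S code, in a fit of all animals, at other group sizes, with the actin and GAPDH differences or the rod mean, or with any code left out. These fits reuse all or most of the animals by which the genes were picked, so kept signs were likely from the start.

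With the L code as a factor 15 named genes changed sign: Serpine3 (-0.050), Mthfd2 (0.22), Chac1 (0.33), Lgals7 (0.032), Asns (0.40), Sesn2 (0.27), Prcd (-0.16), Cplx3 (-0.026), Gad1 (-0.082), Myh1 (-0.012), C1qa (0.078), Mt2A (0.15), Ddit3 (0.036), Hnrnpu (0.071) and Pcdh18 (-0.017). With 5 principal components 7 did: Prcd (-0.012), Cplx3 (-0.058), Gng13 (-0.0030), Grm6 (-0.017), Gad1 (-0.081), Dkk3 (-0.017) and Cdk1 (0.0003). Over the middle 60 animals 25 did: Nog (-0.046), Myh6 (-0.26), Rorb (-0.15), Cxcl1 (0.34), Cplx3 (-0.13), Vtn (-0.012), Mak (0.026), Ift46 (-0.031), Ift80 (0.016), Rlbp1 (-0.078), Mfrp (-0.059), Gng13 (-0.055), Grm6 (-0.19), Car10 (-0.072), Gad1 (-0.20), Pdgfra (-0.077), Tie1 (-0.26), Nr1d2 (-0.14), Nr1d1 (-0.0044), Cox8a (-0.089), Ndufb3 (-0.22), Ndufa1 (-0.19), Pcdh18 (-0.12), Gstt2 (-0.012) and Ipmk (-0.077). The cause was not tested. The fit with the L code rests on 14 animals and has fewer degrees of freedom, and the middle animals span a narrower range of Pcdh15. The labels give no replicate numbers that pair low with high animals; the S code and the L code served as blocks instead, as given above.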
